A study of Mus musculus with 15 samples.

Results

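Ferroptosis is a form of cell death driven by iron and by oxidised phospholipids, and it is a known way for tubule cells to die after folic acid. The 9 genes described here act in it or handle the iron it needs: Gpx4, Aifm2, Acsl4, Lpcat3, Fth1, Ftl1, Tfrc, Slc40a1 and Slc11a2. They were taken by symbol from a table of 19602 genes in mouse kidney. All 9 reached 10 normalised counts in 3 or more libraries, the filter on low values that left 14651 genes to test.

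RNA was measured in whole kidneys of 4 groups of male and female mice aged 6 to 8 weeks. Generation 3 mice without telomerase (G3, Tert-/-) received 1 intraperitoneal injection of 125 mg/kg folic acid (n = 4) or 200 ul of 0.3 M NaHCO3 vehicle (n = 4). Mice with telomerase (WT, Tert+/+) received folic acid (n = 3) or vehicle (n = 4). All were killed at day 14 and the kidneys perfused with cold saline, so the loss of Tert affects every cell of the G3 mice and the tissue is a mixture of all kidney cells. Sequencing covered the 3' ends of polyadenylated transcripts, and each library held 5014684 to 6609307 reads in genes (median 6091019). Values are normalised counts, reads divided by 1 size factor per library, of which 1 read made 0.895 to 1.13. The numbers in names such as WT vehicle 2 only name a library. Numbers in the sample titles fall into 3 series, called title series here. All WT folic acid kidneys and WT vehicle 1 to 3 were in series 2. G3 vehicle 1 to 3 were in series 1. All G3 folic acid kidneys, G3 vehicle 4 and WT vehicle 4 were in series 3. Between folic acid kidneys, genotype and title series therefore cannot be told apart without the vehicle libraries. In G3, folic acid and title series go together in part.

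Several libraries stood apart from their labels. Xist, the RNA of the inactive X chromosome, and 4 Y-linked genes went against the labelled sex in 10 of 15 libraries. The summed Y-linked count was 668 to 867 in 5 libraries (G3 folic acid 1 and 3, WT vehicle 1, 3 and 4) and 0.977 to 29.5 in 8 libraries, which included all 3 WT folic acid and all 4 G3 vehicle kidneys. G3 folic acid 4 and WT vehicle 2 held both kinds of RNA, with Y-linked sums of 273 and 283 and Xist at 2006 and 3027. In WT, folic acid and Y-linked RNA therefore cannot be told apart without the G3 libraries. Among vehicle kidneys, Y-linked sums were 0.977 to 7.57 in G3 and 283 to 867 in WT. After vehicle, genotype and Y-linked RNA therefore cannot be told apart without the folic acid libraries. In G3 folic acid kidneys the sums were 15.0 to 694, so folic acid and Y-linked RNA go together in part in G3 as well. A further library, WT folic acid 1, gave 23.0% of all its reads to Gm42418 alone, against 4.85% to 8.15% in the others. Tert RNA was near its floor in every group (3.00 to 10.7 in G3 folic acid, 2.93 to 15.1 in G3 vehicle, 6.67 to 13.6 in WT folic acid and 3.00 to 22.6 in WT vehicle), so it was too low to check the genotype. Proximal tubule markers summed to 38669 to 58813 in G3 folic acid and 53824.5 to 72569 in G3 vehicle kidneys. In WT they summed to 38916, 78577.5 and 81401 in folic acid 1, 2 and 3 and to 51882 to 80871 in vehicle kidneys. Tubular injury markers summed to 4278 to 9106 in G3 folic acid, 3222 to 3951 in G3 vehicle, 3948 to 6975 in WT folic acid and 2359 to 3381 in WT vehicle kidneys. Of these 11 genes, only Clu and Spp1 lay wholly above vehicle in WT, where 9.31% of all genes did. Havcr1 had 44.2, 4.80 and 0.953 in WT folic acid kidneys, against 2.26, 0, 1.92 and 4.995 in WT vehicle kidneys. Lcn2 had 358, 11.5 and 12.4, against 21.5, 1.90, 17.3 and 6.99. For both genes WT folic acid 1 alone lay above the WT vehicle range.

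Inside cells, iron enters bound to transferrin through the receptor Tfrc, crosses the endosome through Slc11a2 (DMT1), is stored in shells built of the ferritin chains Fth1 and Ftl1, and leaves through Slc40a1 (ferroportin), the only known iron exporter. Acsl4 and Lpcat3 load polyunsaturated fatty acids into membrane phospholipids, the substrate of lipid peroxidation, while Gpx4 reduces the peroxides with glutathione and Aifm2 (FSP1) regenerates a lipid-soluble radical trap. The kidney's proximal tubule takes up filtered iron and is the segment most often injured by folic acid.

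Iron regulatory proteins bind a hairpin called the iron-responsive element, which blocks translation when it lies before the coding sequence and protects the RNA from decay when it lies after it. The elements are shown because they are the RNA sequences through which iron acts on members of this group, on translation in those with a 5' element and on the RNA level in Tfrc. They were searched on the transcript strand of GENCODE M21 (GRCm38) as C, any 5 bases, the letters CAGTG, then A, C or T, followed by 5 bases that pair with the 5 bases before the loop. Each 30-base site is printed 5' to 3', with the bulged C and the 6-base loop in capitals.
Fth1 5' UTR, chr19:9982732-9982761, plus strand: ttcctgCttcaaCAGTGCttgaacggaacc
Ftl1 5' UTR, chr7:45459778-45459807, minus strand: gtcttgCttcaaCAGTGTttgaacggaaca
Slc40a1 5' UTR, chr1:45925464-45925493, minus strand: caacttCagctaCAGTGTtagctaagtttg
Tfrc 3' UTR, chr16:32631219-32631248, plus strand: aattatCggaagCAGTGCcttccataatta
Tfrc 3' UTR, chr16:32631598-32631627, plus strand: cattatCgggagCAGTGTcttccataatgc
Tfrc 3' UTR, chr16:32631663-32631692, plus strand: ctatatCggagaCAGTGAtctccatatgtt
Tfrc 3' UTR, chr16:32631710-32631739, plus strand: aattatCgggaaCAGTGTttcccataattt
Both ferritin chains shared the stem bases next to the loop, and the sites of Tfrc stood in a row within its 3' UTR. The pattern lay in a 5' UTR of 0.106% and in a 3' UTR of 0.456% of 21718 genes with an annotated UTR. In the other 5 members these letters were not found in a UTR. They include Slc11a2, of which some transcripts are known to carry a 3' element of another form.

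Slc11a2, which carries ferrous iron across endosomal and plasma membranes, was the 1 member of 9 that passed the test for folic acid in WT. It is on chr15:100387898-100425072, minus strand. It had 124, 160.3 and 161 normalised counts in WT folic acid kidneys, against 237, 204, 221 and 278 in WT vehicle kidneys. The groups did not overlap: the highest folic acid kidney lay below the lowest vehicle kidney. Slc11a2 averaged 148 ± 21.4 (SD, n = 3) after folic acid and 235 ± 31.7 (SD, n = 4) after vehicle, and fell to 0.633-fold. Its log2 fold change was -0.66 (SE 0.17, 95% interval -1.02 to -0.30), with an adjusted p of 0.0358 by limma with Benjamini-Hochberg (BH) adjustment over all 14651 genes.

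In the same comparison limma called 5.06% of all genes. The call of Slc11a2 did not hold when the Y-linked share of each library was a term, where its log2 fold change was -0.28 with an adjusted p of 0.981 by limma. In WT this term nearly follows treatment, and with it limma called only 1 of all genes in this comparison. The loss of the call therefore tells little about Slc11a2 itself, and the same limit applies to the other WT results with this term. The call of Slc11a2 was also lost, with limma adjusted p of 0.0582 to 0.149, without any 1 of WT folic acid 1, 2 or 3 or WT vehicle 1, 3 or 4. Thick limb and distal tubule markers summed to 34722 to 36569 in WT folic acid and 21923 to 25815 in WT vehicle kidneys. Umod and Slc12a1 had the highest mean counts of these 8 genes. Umod alone of the 8 was called, higher (log2 0.85; limma adjusted p = 0.0330), where 2.17% of all genes were. The log2 estimates of Calb1, Pvalb and Slc12a3 were -0.35, -0.24 and -0.08. A list of 8 genes that are high in male kidney summed to 833 to 920 in WT folic acid against 7178 to 20081 in WT vehicle kidneys. The part of both lists in the Slc11a2 result was not tested beyond the Y-linked term, and in whole kidney fewer cells of a type and less RNA per cell cannot be told apart.

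In G3 kidneys Slc11a2 had 237, 180.4, 216 and 158 normalised counts after folic acid, against 163, 232, 197 and 172 after vehicle. These groups overlapped over most of their range. The log2 fold change was 0.05 (95% interval -0.28 to 0.38; limma adjusted p = 0.938, BH). The folic acid effect in G3 minus that in WT was 0.71 (SE 0.23), with a limma adjusted p of 0.107, so the difference between genotypes did not pass. The annotation gives Slc11a2 transcripts with different 3' ends, at chr15 positions 100387898 and 100392563, which the gene-level counts merge, and Gm5475 overlaps it on the opposite strand by 2926 bases.

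**Figure D1:**
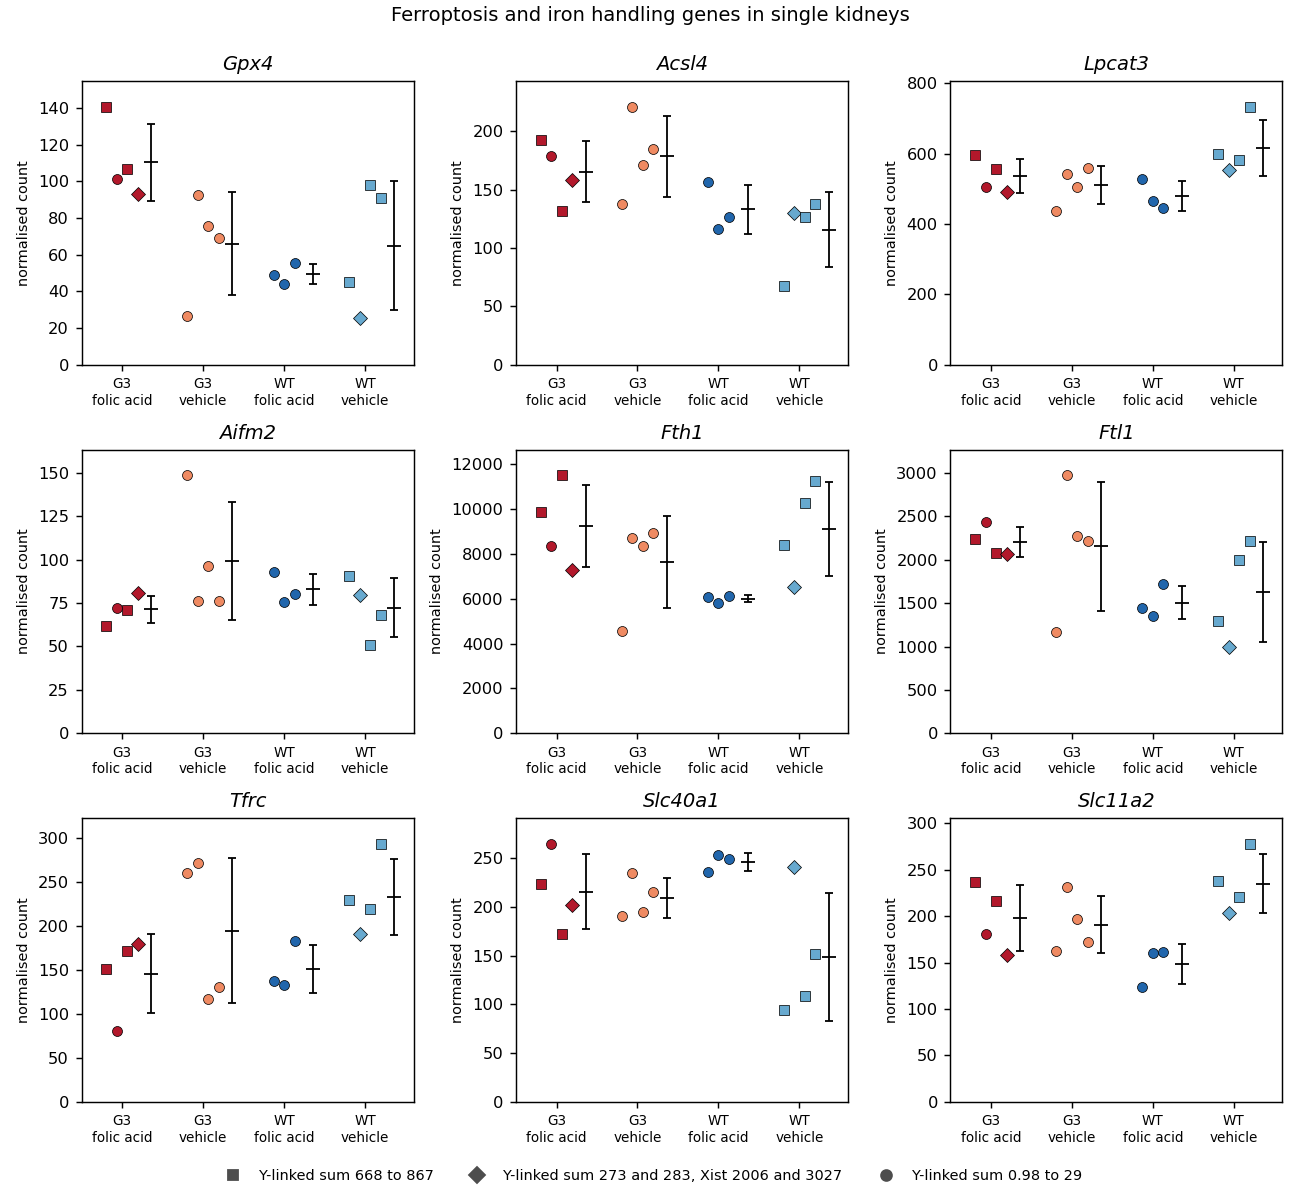
Normalised counts of the 9 members in each of 15 kidneys (points) with the group mean and SD (bars at the right of each group); groups run from G3 folic acid and G3 vehicle to WT folic acid and WT vehicle. Marker shape gives the summed Y-linked RNA, and the 3 WT folic acid kidneys lie below all 4 WT vehicle kidneys in Slc11a2, Fth1, Tfrc and Lpcat3.

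Tfrc, the transferrin receptor (chr16:32608920-32632794, plus strand), gave the same order of groups in WT without passing the test. It had 137, 133 and 183 normalised counts in WT folic acid kidneys, against 229.6, 191, 219.7 and 294 in WT vehicle kidneys. All 3 folic acid kidneys were below all 4 vehicle kidneys, yet the log2 fold change of -0.62 (SE 0.30) had a limma adjusted p of 0.230. The estimate turned to 0.016 with the Y-linked share as a term, and to 0.51 with that term and without G3 folic acid 4 and WT vehicle 2 (limma adjusted p of 0.997 and 0.981). In G3 the values were 151, 80.8, 172 and 179.8 after folic acid, against 260.3, 272, 117 and 131 after vehicle. G3 vehicle split into a high pair and a low pair, with 3 folic acid kidneys in the gap and 1 below both pairs. Averaged over the genotypes, the folic acid estimate was -0.50 (SE 0.21; limma adjusted p = 0.198).

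Ferroportin RNA, from Slc40a1 (chr1:45908068-45926523, minus strand), had the opposite sign. It had 236, 253 and 249.7 normalised counts in WT folic acid kidneys, against 93.9, 241, 108 and 152 in WT vehicle kidneys. The folic acid kidneys lay close together, while WT vehicle 2 stood among them and the other 3 vehicle kidneys lay below. The 1.77-fold estimate (log2 0.82, SE 0.24) missed the threshold with a limma adjusted p of 0.0537. Without WT vehicle 2, which held both Xist and Y-linked RNA, the estimate, again higher after folic acid, reached an adjusted p of 0.00309. With the Y-linked share as a term it was 0.07 with an adjusted p of 0.992, both by limma.

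In G3 kidneys Slc40a1 had 223, 265, 173 and 202 normalised counts after folic acid, against 191, 235, 195 and 215 after vehicle. The groups overlapped throughout, and the fold change was 1.02 (95% interval 0.743 to 1.41). Among vehicle kidneys the G3 over WT log2 estimate was 0.58 (SE 0.22; limma adjusted p = 0.164), and without WT vehicle 2 it was called (log2 0.84, limma adjusted p = 0.00947). Across all kidneys the 3 with the lowest Slc40a1 were WT vehicle 1, 3 and 4, which had the highest summed Y-linked RNA. G3 folic acid 1 and 3, with Y-linked sums of 694 and 668, had 223 and 173, the first inside the G3 vehicle range and the second below it. Macrophages recycle iron and are rich in ferroportin, and 15 macrophage markers summed to 5233, 1631 and 1542 in WT folic acid kidneys, against 1739, 1333, 1347 and 1270 in WT vehicle kidneys. WT folic acid 1 alone lay above the vehicle range, while Slc40a1 was as high in WT folic acid 2 and 3 as in it. In G3 they summed to 1745 to 4727 after folic acid and 999 to 1585 after vehicle, where the Slc40a1 estimate was near 0. The part of macrophages in these values was not tested.

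**Figure D2:**
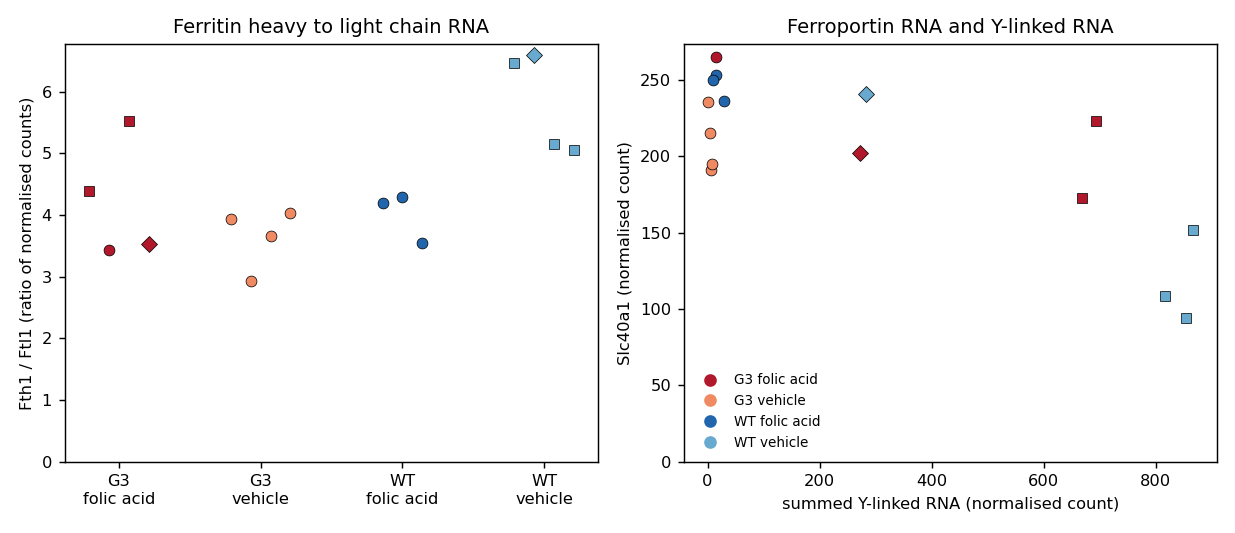
Left, the ratio of Fth1 to Ftl1 normalised counts in each kidney by group; right, Slc40a1 normalised count against the summed count of 4 Y-linked genes, coloured by group, with marker shapes for the same 3 ranges of Y-linked RNA as in the plot of the members by library. The 4 WT vehicle kidneys have the ratios 5.06 to 6.59, and 3 of them combine the highest Y-linked sums with the lowest Slc40a1. G3 folic acid 1 and 3, with sums of 694 and 668, have Slc40a1 at 223 and 173.

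Ferritin stores iron in a shell of both chains. Fth1 (chr19:9980598-9985098, plus strand) encodes the heavy chain, which oxidises iron for storage. It had 6065, 5805 and 6126 normalised counts in WT folic acid kidneys, against 8392, 6537, 10269.6 and 11223 in WT vehicle kidneys. The folic acid kidneys lay close together and below all vehicle kidneys, with a mean of 5999 ± 171 (SD, n = 3) against 9105 ± 2077 (SD, n = 4). The estimate of 0.673-fold (95% interval 0.478 to 0.947; log2 -0.57) had a limma adjusted p of 0.152. With the Y-linked share as a term the log2 estimate was -0.0043, and after quantile normalisation it was -0.31 (limma adjusted p of 0.998 and 0.428).

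In G3, Fth1 had 9851, 8351, 11488 and 7277 normalised counts after folic acid, against 4572, 8691, 8323 and 8914 after vehicle. The single low vehicle kidney, G3 vehicle 1, set most of the spread, and the log2 estimate was 0.31 (SE 0.22). Between folic acid kidneys the 4 G3 values lay above the 3 WT values, a 1.52-fold estimate with a limma adjusted p of 0.161. The difference of the folic acid effects was 0.88 (SE 0.32; limma adjusted p = 0.156), and it passed, at 1.13 with a limma adjusted p of 0.0425, without G3 folic acid 4 and WT vehicle 2.

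Ftl1, the light chain that helps form the mineral core, is on chr7:45457944-45459884, minus strand. It had 1449, 1350.5 and 1724 normalised counts in WT folic acid kidneys, against 1299, 992, 1995 and 2219 in WT vehicle kidneys. Unlike Fth1, the folic acid values sat inside the vehicle range, with a log2 estimate of -0.04 (95% interval -0.62 to 0.54). In G3 it had 2244, 2435, 2079.9 and 2064 after folic acid, against 1164, 2974, 2271 and 2215 after vehicle, again with overlapping groups. After folic acid all 4 G3 kidneys exceeded all 3 WT kidneys, an estimate of 1.47-fold with a limma adjusted p of 0.267.

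The 2 chains therefore gave different ratios. Fth1 over Ftl1 was 4.19, 4.30 and 3.55 in WT folic acid kidneys, against 6.46, 6.59, 5.15 and 5.06 in WT vehicle kidneys, which did not overlap. It was 4.39, 3.43, 5.52 and 3.53 in G3 folic acid kidneys, against 3.93, 2.92, 3.67 and 4.02 in G3 vehicle kidneys, which did. These ratios are given as a description. All G3 vehicle ratios also lay below all WT vehicle ratios. Over both genotypes, the 5 libraries with Y-linked sums of 668 to 867 had ratios of 4.39 to 6.46. The 8 libraries with sums of 0.977 to 29.5 had ratios of 2.92 to 4.30. G3 folic acid 4 and WT vehicle 2, with both kinds of RNA, had 3.53 and 6.59. The part of sex in these ratios was not tested. The pseudogenes Fth-ps2, Fth-ps3 and Ftl1-ps2 are annotated as copies of the ferritin genes and are not listed in the table, so reads could be shared with them.

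Gpx4, the glutathione peroxidase that reduces lipid peroxides in membranes, is on chr10:80047166-80056439, plus strand. It had 141, 101, 107 and 93.0 normalised counts in G3 folic acid kidneys, against 26.4, 92.8, 75.7 and 69.2 in G3 vehicle kidneys. The lowest folic acid kidney was just above the highest vehicle kidney. Gpx4 averaged 111 ± 20.9 after folic acid and 66.0 ± 28.2 after vehicle (SD, n = 4 each), a 1.81-fold estimate whose 95% interval ran from 1.03 to 3.16. Its limma adjusted p was 0.333, and limma called 0.273% of all genes in that comparison.

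In WT, Gpx4 had 48.8, 44.2 and 55.3 normalised counts after folic acid, against 45.2, 25.6, 97.9 and 90.9 after vehicle. The vehicle kidneys divided into a low pair and a high pair, and the folic acid kidneys lay inside the vehicle range. Between folic acid kidneys, Gpx4 was 2.19-fold higher in G3 by estimate (95% interval 1.20 to 4.02), with no overlap and a limma adjusted p of 0.140. When the fit held the 2 folic acid groups alone, the same estimate had a limma adjusted p of 0.0425.

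Gpx4-ps2, a transcribed pseudogene copy at chr10:45875291-45876086, plus strand, is counted as a gene of its own. It had 78.1, 68.6, 136 and 137 normalised counts in G3 folic acid, 107, 89.9, 82.2 and 82.2 in G3 vehicle, 143, 142 and 171 in WT folic acid and 141, 115, 129 and 137 in WT vehicle kidneys. Reads of the 2 genes may have been divided between them, so the level of Gpx4 is uncertain. The sum of both was 170.0 to 243 in G3 folic acid and 186 to 226 in WT folic acid kidneys, ranges that overlap. It was 133 to 183 in G3 vehicle kidneys. Between folic acid kidneys the pseudogene's own log2 estimate was -0.59 (limma adjusted p = 0.138), opposite in sign to that of Gpx4.

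Aifm2 (chr10:61715263-61739260, plus strand) encodes FSP1, which acts in parallel to Gpx4. It had 61.7, 72.3, 70.9 and 80.5 normalised counts in G3 folic acid kidneys, against 148, 76.2, 96.3 and 76.2 in G3 vehicle kidneys. G3 vehicle 1 stood above the other 3, and the estimate was 0.747-fold (95% interval 0.548 to 1.02; limma adjusted p = 0.398). In WT it had 93.0, 75.8 and 80.1 after folic acid, against 90.5, 79.6, 50.8 and 67.9 after vehicle. H2afy2 overlaps Aifm2 on the opposite strand by 596 bases.

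Acsl4, which activates arachidonic acid for membrane lipids (chrX:142317993-142390535, minus strand), had its largest estimate between the genotypes after vehicle. It had 137, 221, 171 and 184 normalised counts in G3 vehicle kidneys, against 67.9, 129.9, 127 and 138 in WT vehicle kidneys. The groups overlapped only at their edges, with the lowest G3 kidney just below the highest WT kidney. The 1.57-fold estimate (log2 0.65, SE 0.21) had a limma adjusted p of 0.0994. After folic acid it had 192, 179, 132 and 158 in G3 and 157, 116 and 127 in WT kidneys, and the folic acid estimates were -0.10 in G3 and 0.24 in WT on the log2 scale.

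Lpcat3, the acyltransferase that inserts those fatty acids (chr6:124663027-124704418, plus strand), had the lowest relative spread of the 9 members, with a coefficient of variation of 13.7% over all 15. It had 528, 466 and 447 normalised counts in WT folic acid kidneys, against 601, 554, 581 and 733 in WT vehicle kidneys. These groups did not overlap, and the 0.781-fold estimate (95% interval 0.647 to 0.942) had a limma adjusted p of 0.108. In G3 it had 596, 505, 556 and 490.3 after folic acid, against 436, 543, 505 and 559 after vehicle, an estimate of 1.05-fold. Emg1 overlaps Lpcat3 on the opposite strand by 334 bases.

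**Figure D3:**
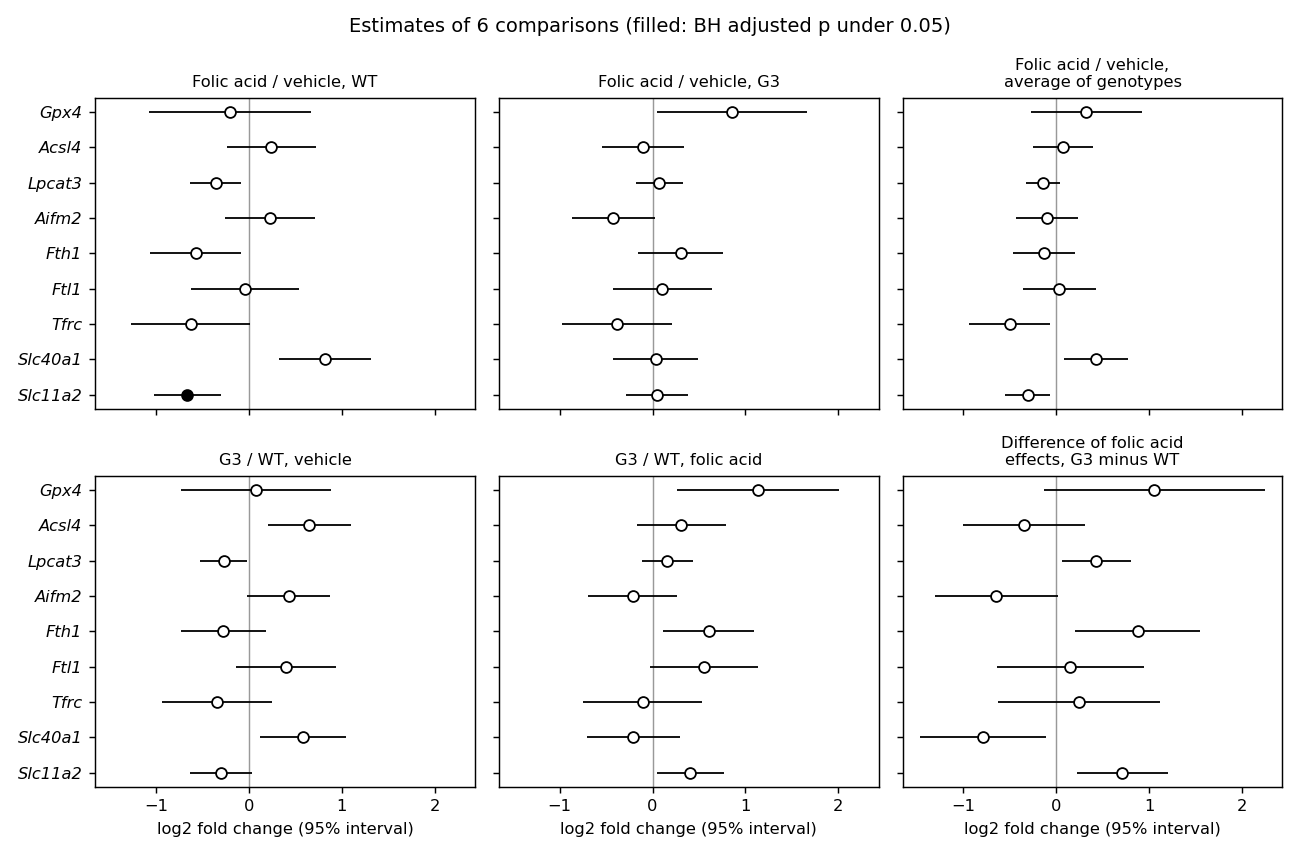
Log2 fold changes (points) with 95% intervals (lines) of the 9 members in 6 comparisons, from limma; filled points have a BH adjusted p under 0.05. The only filled point is Slc11a2 for folic acid in WT, at -0.66.

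Across the 6 comparisons 1 call was made among the 9 members. For folic acid in WT, 1 of 9 was called, lower, as were 2.89% of all genes in that direction, and 4 had an unadjusted p under 0.05, where 23.1% of all genes did. Fth1, Lpcat3, Slc11a2 and Tfrc lay wholly below vehicle, and 10.6% of all genes did so in that direction. The median estimate of the members was -0.20, beside 0.01 over all genes. edgeR called 1 member and DESeq2 called 2, Slc11a2 and Slc40a1.

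For folic acid in G3, limma called 0 of 9 members, with 1 at an unadjusted p under 0.05 (13.8% of all genes), and edgeR and DESeq2 called 0. Gpx4 alone did not overlap, higher after folic acid, as did 3.98% of all genes. For folic acid averaged over the genotypes, limma called 0 of 9 members and 1.79% of all genes, with 3 members (Slc11a2, Slc40a1 and Tfrc) at an unadjusted p under 0.05 (18.7% of all genes) and 0 called by edgeR or DESeq2. The WT and G3 effects share no libraries.

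For G3 against WT, limma called 0 of 9 members after vehicle, where it called 2.9% of all genes, and 0 of 9 after folic acid, where it called 2.3%. In each of these, 3 members had an unadjusted p under 0.05 (17.9% of all genes after vehicle and 20.4% after folic acid), and edgeR and DESeq2 called 0. After folic acid Gpx4, Fth1 and Ftl1 lay wholly above WT, and 7.84% of all genes did so in that direction. For the difference of the folic acid effects limma called 0 of 9 members and 3.82% of all genes, with 4 members (Fth1, Lpcat3, Slc11a2 and Slc40a1) at an unadjusted p under 0.05 (16.8% of all genes) and 0 called by edgeR or DESeq2.

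Single kidneys accounted for much of the spread. In G3 vehicle 1, Gpx4, Ftl1 and Fth1 were 1.15, 0.81 and 0.69 below their group mean on the log2 scale, while Aifm2 was 0.63 and Tfrc 0.52 above it. In WT vehicle 2, Gpx4, Ftl1 and Fth1 were 1.12, 0.64 and 0.45 below and Slc40a1 was 0.79 above. These kidneys thus shared low Gpx4 and low ferritin and differed in Tfrc, which in WT vehicle 2 was 0.27 below its group mean.

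**Figure D4:**
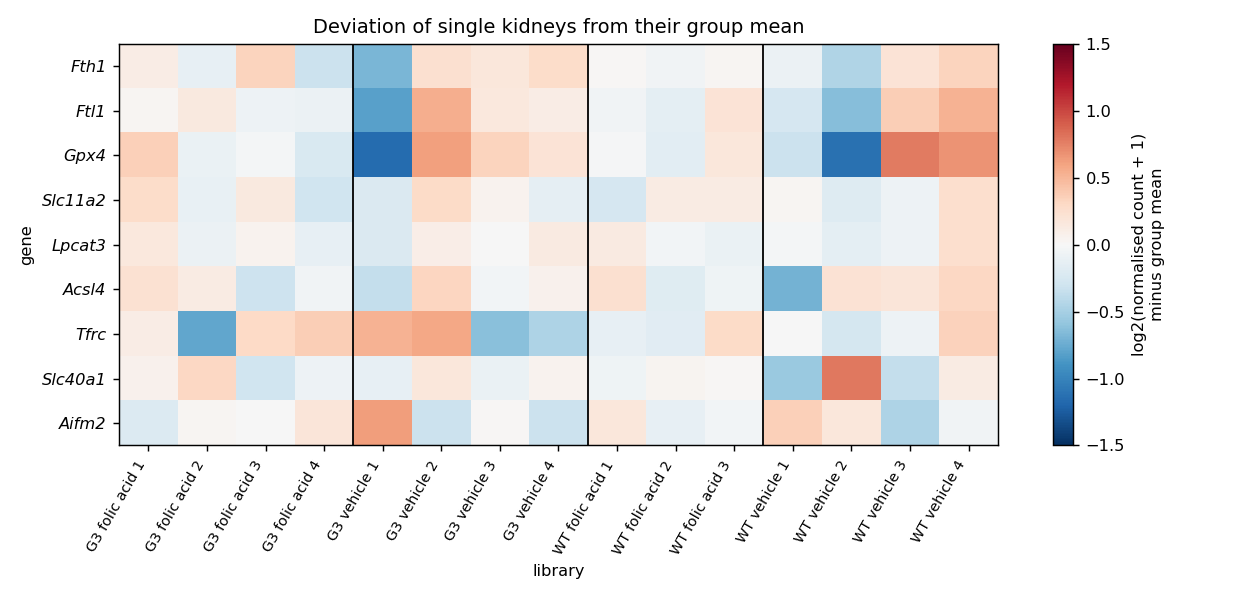
Deviation of each kidney from its group mean on the log2(normalised count + 1) scale, for 9 genes (down) and 15 libraries (across, with lines between groups); red is above and blue below the mean. G3 vehicle 1 and WT vehicle 2 are blue in Gpx4, Ftl1 and Fth1 together.

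Over the 15 libraries, Gpx4 varied with Ftl1 (Pearson r 0.90, Spearman rho 0.76) and with Fth1 (r 0.80, rho 0.73), Fth1 with Lpcat3 (r 0.78, rho 0.81), and Aifm2 against Fth1 (r -0.73, rho -0.72). These are descriptions over kidneys that share groups and size factors. Among 10889 genes with a mean of at least 20, the genes whose log2 values followed each member most closely were Spg21 (r 0.94) and Mtmr11 (0.92) for Gpx4, and Slc17a1 and Dnajb11 (both 0.95) for Fth1. Ftl1 was followed by Polr1c (0.95) and Jup (0.94), and Aifm2 by Snhg20 (0.95) and Aoc3 (0.85). Gpc3 (0.94) was among the 2 closest to Slc40a1, Mrpl24 (0.94) was among the 2 closest to Slc11a2, and Tfrc was followed by Gstz1 and Ccdc50 (both 0.88). For Acsl4 they were H2-Q7 (0.89) and Sirpa (0.88), and for Lpcat3 Zfp101 and Dgkh (both 0.92).

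Other genes of the pathway were read from 5 lists. The ferroptosis defence list (31 tested) holds glutathione, coenzyme Q and antioxidant genes. For folic acid in WT 4 were called lower and 0 higher, where 2.89% of all genes were called lower and 2.17% higher. They were Nqo1, a quinone reductase (0.387-fold; 59.0, 43.2 and 41.0 against 119.9, 72.0, 143 and 188), Gss, which completes glutathione (0.540-fold), Ggt1, which breaks it down outside the cell (0.506-fold), and Cbs, which makes its precursor (0.376-fold), with limma adjusted p of 0.0131 to 0.0355. The list's median was -0.29 beside 0.01 over all genes. Without WT folic acid 1 only Nqo1 of these 4 was called, and Gss, Ggt1 and Cbs had limma adjusted p of 0.0906 to 0.152. With the Y-linked share as a term the WT log2 estimates of Nqo1, Gss, Ggt1 and Cbs were -0.80, -0.13, -0.30 and -0.03. None was called (limma adjusted p of 0.981 to 0.994). In G3, 0 of 31 were called by limma, where 0.273% of all genes were, so a list of this size holds too few genes to set 0 apart from that share. Nqo1 was 2.53-fold higher in G3 than in WT folic acid kidneys (means of 122 and 47.7; limma adjusted p = 0.0198). Among vehicle kidneys 2 of 31, Cbs and Ggt1, were called lower in G3 than in WT, where 2.03% of all genes were. Their log2 estimates were -1.84 and -1.10 (limma adjusted p of 0.00917 and 0.0175). In the difference of the folic acid effects both were called higher, as were 2.16% of all genes.

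In the iron uptake, export and storage list (22 tested), Heph and Cp, copper oxidases that load iron onto transferrin after export, rose in WT, Heph to 2.79-fold (limma adjusted p = 0.0320) and Cp to 2.41-fold (limma adjusted p = 0.0457). WT folic acid 1 led both: Heph had 270.0, 71.0 and 82.9 in WT folic acid against 37.3, 44.5, 40.3 and 43.0 in WT vehicle kidneys, and Cp had 1544, 534 and 499 against 289.5, 341, 363 and 251. Without it neither was called, at log2 0.88 and 0.74 with limma adjusted p of 0.135 and 0.215. Heph and Cp were 2 of 22 called higher in WT and 0 were called lower, where 2.17% and 2.89% of all genes were. The list's median was 0.29 in WT and -0.17 in G3. In G3, 0 of 22 and 0.273% of all genes were called, so this list is too short to set 0 apart from that share. Lrp2 (megalin), which takes up filtered proteins, was 0.476-fold in G3 against WT folic acid kidneys (limma adjusted p = 0.0205). In G3 against WT vehicle kidneys Steap3, an endosomal iron reductase, averaged 84.0 ± 25.4 against 40.4 ± 7.06, and Cubn, megalin's partner, averaged 646 ± 148 against 429 ± 48.1 (SD, n = 4 each; limma adjusted p of 0.0499 for each). With the Y-linked share as a term the log2 estimates of Steap3 and Cubn were 0.20 and 0.50 (limma adjusted p of 0.929 and 0.803). For the difference of the folic acid effects Lrp2, Steap3 and Tmprss6, a membrane protease that restrains hepcidin, were called lower (limma adjusted p of 0.0172 to 0.0442). They were 3 of 22 called lower and 0 were called higher, where 1.67% and 2.16% of all genes were. Tmprss6 had 0 counts in 3 libraries. When each of 15 libraries was left out in turn, the call was lost in 8 fits for Lrp2, 0 for Steap3 and 13 for Tmprss6. With the Y-linked share as a term their log2 estimates were -0.38, -0.53 and 0.98, none of them called.

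In the lipid peroxidation list (20 tested), Agps, an ether lipid enzyme, fell after folic acid in WT (0.365-fold; limma adjusted p = 0.0211), and Acsl1, a fatty acid activating enzyme, fell in G3 (0.411-fold; limma adjusted p = 0.0410). Each was 1 of 20 called lower, where 2.89% of all genes were in WT and 0.116% in G3. Acsl1 had 855, 1344, 980.0 and 947 normalised counts in G3 folic acid kidneys, against 2912, 2765, 2155 and 2156 in G3 vehicle kidneys. It was also 0.460-fold in G3 against WT folic acid kidneys (limma adjusted p = 0.0406). Alox5ap, which presents arachidonic acid to a lipoxygenase, was 2.40-fold higher after folic acid averaged over the genotypes (limma adjusted p = 0.0322). It was 1 of 20 called higher, where 1.43% of all genes were. Without WT folic acid 1 it was not called (log2 1.05, limma adjusted p = 0.0726), and leaving out 1 of 15 libraries lost the call in 8 fits. In the same comparison 7 of 15 macrophage markers were called higher and 0 lower. Their part in the Alox5ap result was not tested. After vehicle, G3 over WT was 0.294-fold for Agps, 0.717-fold for the polyamine enzyme Sat1 and 4.84-fold for the desaturase Scd1, in which G3 vehicle 1 had 14699 counts. With the Y-linked share as a term their log2 estimates were -0.65, -0.35 and 0.17, none of them called (limma adjusted p of 0.805 to 0.973). The folic acid effects differed between genotypes for these 3 and for Acsl1 (limma adjusted p of 0.00429 to 0.0352).

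In the list of haem and mitochondrial iron genes (35 tested), Cpox, an enzyme of haem synthesis, and Fdx1, an iron-sulphur electron carrier, fell after folic acid in WT, to 0.439-fold for Cpox (limma adjusted p = 0.0299) and 0.627-fold for Fdx1 (limma adjusted p = 0.0277). They were 2 of 35 called lower, where 2.89% of all genes were. In G3, 0 of 35 and 0.273% of all genes were called, so this list too is short for setting 0 apart from that share. Without WT folic acid 1 neither Cpox nor Fdx1 was called in WT (limma adjusted p of 0.0744 and 0.129). Of 5 other genes known to carry an iron-responsive element, Epas1 rose in WT (1.44-fold; limma adjusted p = 0.0449, and 0.152 without WT folic acid 1) and Alas2, the erythroid enzyme of haem synthesis, fell in G3 (0.339-fold; limma adjusted p = 0.0252). Alas2 had 101, 40.4, 75.9 and 34.0 normalised counts in G3 folic acid kidneys, against 143, 189, 198 and 157 in G3 vehicle kidneys, with no overlap. Erythroid markers, among them Alas2, summed to 6425 to 22261 after folic acid and 27432 to 44837 after vehicle in G3, and their part in this was not tested.

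**Figure D5:**
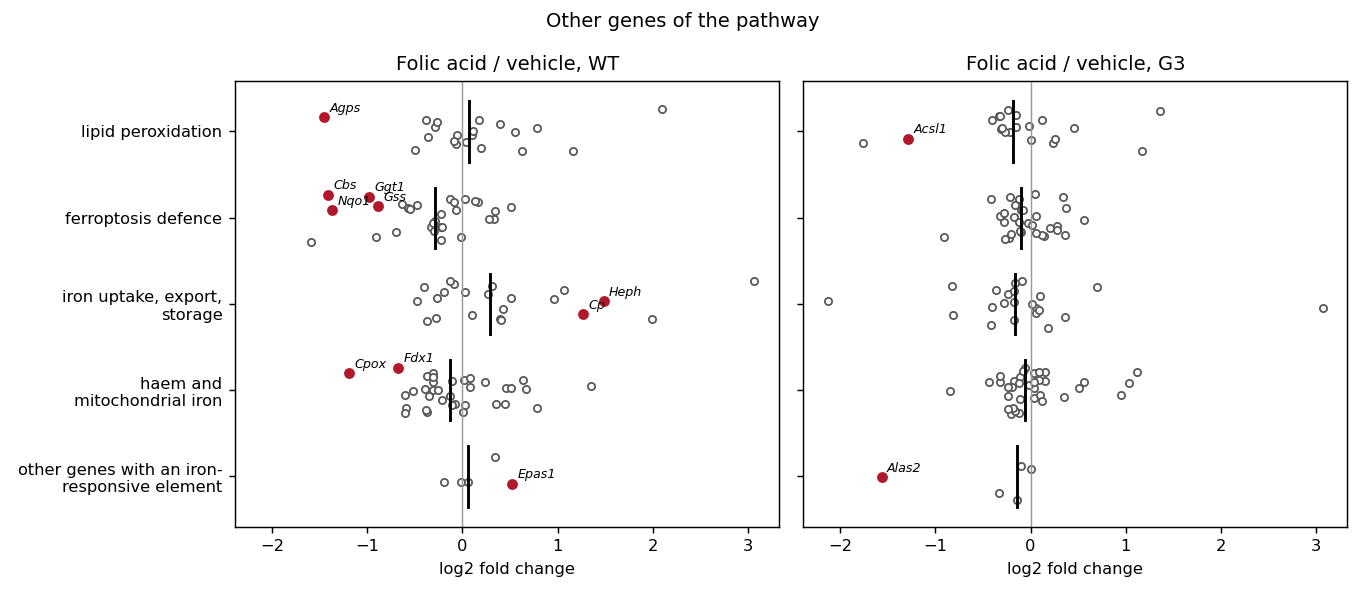
Log2 fold changes for folic acid over vehicle of the genes in 5 lists, in WT (left) and G3 (right); each point is a gene, filled and named where its limma BH adjusted p is under 0.05, and the vertical black lines are list medians. Ferroptosis defence genes have the median -0.29 in WT and -0.10 in G3.

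Over the 6 comparisons the lists, with 31, 22, 20, 35 and 5 genes tested, held 36 calls in 19 genes. Of all genes, 5.06% were called for folic acid in WT, 0.273% in G3 and 1.79% averaged over the genotypes. Between the genotypes, 2.9% of all genes were called in vehicle kidneys and 2.3% in folic acid kidneys. For the difference of the folic acid effects 3.82% were. With the Y-linked share as a term 2 of the 36 remained, both of Alas2, and 10 remained with the labelled sex as a term. Without WT folic acid 1, 22 remained. When each library was left out in turn, 6 remained throughout: Nqo1 for folic acid in WT, Agps and Cbs for G3 against WT after vehicle, and Acsl1, Agps and Steap3 for the difference of the folic acid effects.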

How the data were processed

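The deposited signal is, per gene and library, a count divided by the library's size factor by the authors, and is a whole multiple of 1 read in each of the 15 libraries. The submitters' processing notes name FastQC 0.11.7 for read checks, TopHat2 2.0.10, Bowtie 1.0.0 and SAMtools 0.1.19 for alignment to GRCm38, HTSeq 0.6.1 for counting, and DESeq2 for normalisation. Per the labels' protocols, libraries were made with QuantSeq from 300 ng of total RNA of quality 4.7 to 8.0 (mean 6.3). The sources used here do not give the annotation, strand setting or gene filter.

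Dividing by the value of 1 read gave whole numbers for 100% of values within 0.001. Genes reaching 10 in 3 or more libraries entered the test, on log2(normalised count + 1), which understates changes of low genes, with limma 3.58.1 in R 4.3.3 (mean-variance trend, 1 term per group, all libraries, two-sided). p-values were BH-adjusted over all genes, with calls at adjusted p under 0.05, in 6 comparisons. No sex term was used, since the labelled sex went against Xist and Y-linked RNA. The labels do not say whether libraries come from separate animals, so p-values measure the spread between these libraries. Alternatives were other covariates, filters, pseudocounts of 0.5 and 5, scalings, leaving out libraries, and count models of the whole reads in edgeR 4.0.16 or in DESeq2 1.42.0. Those without the 2 libraries of mixed RNA and without WT folic acid 1 were chosen after the values were seen. The procedure was tested on simulated data. For folic acid in WT it called 4% of simulated 1.5-fold changes and 58% of 2-fold changes. For the difference of the folic acid effects it called 4% and 30%, so a member that was not called may still differ.

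The members and gene lists were chosen with earlier results of these data known. Named were all 9 members, up to 4 called genes per list and comparison, and the 2 genes most like each member, of which some are not reported here. Positions came from GENCODE M21, which matched all 9 members.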

Additional observations from a re-analysis of the deposited data

Results flagged for a closer look

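Of 27 groups of 4 libraries tested for a single library far from the rest, 2 were singled out, and chance singles out about 1 in 20. Acsl4 in WT vehicle 1 had 67.9 normalised counts, against 127, 129.9 and 138 in the other WT vehicle kidneys. Fth1 in G3 vehicle 1 had 4572 normalised counts, against 8323, 8691 and 8914 in the other G3 vehicle kidneys.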

How the results depend on the processing

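The 1 call for folic acid in WT (Slc11a2) became 0 with the labelled sex or the Y-linked share as a term, with that share and without G3 folic acid 4 and WT vehicle 2, with title series as a term, with the groups compared only, without a trend and in edgeR with the Y-linked share. It became 2, with Slc40a1 added, with a filter of 50, in DESeq2 and without G3 folic acid 4 and WT vehicle 2. Leaving out 1 library at a time gave 0 to 2 members. For folic acid averaged over the genotypes, for G3 over WT after vehicle and for the difference of the folic acid effects, the count of 0 became 1 without WT vehicle 2 (Slc40a1 in each), a range of 0 to 1 over left-out libraries. Without G3 folic acid 4 and WT vehicle 2 it was 1 after vehicle and 3 for the difference (Fth1, Slc40a1 and Slc11a2), and without WT folic acid 1 as well it was 1 and 2. With the groups compared only it was 1 for G3 over WT after folic acid (Gpx4). The cause of these changes was not tested. Over 32 alternatives the Slc11a2 estimate in WT stayed below 0, at -0.76 to -0.26, with adjusted p of 0.0125 to 0.981, and passed in 18.

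Calls over all genes numbered 741, 40, 262, 425, 337 and 560 in the 6 comparisons (folic acid in WT, in G3 and averaged, G3 over WT after vehicle and after folic acid, and the difference). They were 1, 9, 0, 1, 17 and 2 with the Y-linked share and 370, 12, 425, 17, 268 and 103 with the labelled sex. In DESeq2 they were 1257, 387, 862, 787, 763 and 812. No paired analysis was possible because the replicate numbers follow accession order only. Estimates below changed sign without being called. With the Y-linked share as a term the log2 estimates of other sign were Gpx4 0.76, Ftl1 0.32 and Tfrc 0.016 for folic acid in WT, and Acsl4 0.030, Lpcat3 -0.072, Fth1 -0.031, Ftl1 -0.11 and Slc11a2 -0.18 for folic acid in G3. Further ones were Fth1 0.30, Tfrc 0.31, Slc40a1 -0.18 and Slc11a2 0.090 for G3 over WT after vehicle, and Slc40a1 0.22 for G3 over WT after folic acid. Also of other sign were Gpx4 -0.47, Acsl4 0.011, Fth1 -0.027, Ftl1 -0.42, Tfrc -0.77 and Slc40a1 0.40 for the difference of the folic acid effects. With that term and without G3 folic acid 4 and WT vehicle 2 the log2 estimates of other sign were Tfrc 0.51 for folic acid in WT, and Acsl4 0.018, Lpcat3 -0.027 and Slc11a2 -0.077 for folic acid in G3. Under that setting they were also Ftl1 -0.11 for folic acid averaged over the genotypes, and Fth1 0.0030, Ftl1 -0.042, Tfrc 0.80 and Slc11a2 0.051 for G3 over WT after vehicle. Further ones were Slc40a1 0.085 for G3 over WT after folic acid, and Tfrc -1.68 for the difference of the folic acid effects. In edgeR with the Y-linked share the log2 estimates of other sign were Gpx4 0.56 and Ftl1 0.26 for folic acid in WT, and Acsl4 0.0092, Lpcat3 -0.059, Fth1 -0.051, Ftl1 -0.13 and Slc11a2 -0.17 for folic acid in G3. Also of other sign were Fth1 0.35, Tfrc 0.36, Slc40a1 -0.19 and Slc11a2 0.11 for G3 over WT after vehicle, and Slc40a1 0.24 for G3 over WT after folic acid. Under that setting they were also Gpx4 -0.32, Fth1 -0.045, Ftl1 -0.39, Tfrc -0.75 and Slc40a1 0.43 for the difference of the folic acid effects. With title series as a term the log2 estimates of other sign were Gpx4 0.019 and Ftl1 0.13 for folic acid in WT, and Lpcat3 -0.063, Ftl1 -0.0093, Tfrc 0.085 and Slc40a1 -0.015 for folic acid in G3. Further ones were Aifm2 0.053 for folic acid averaged over the genotypes, and Gpx4 -0.39 and Ftl1 -0.0025 for G3 over WT after vehicle. Also of other sign were Acsl4 -0.10, Lpcat3 -0.18 and Ftl1 -0.14 for G3 over WT after folic acid, and Ftl1 -0.14 for the difference of the folic acid effects. Without G3 folic acid 4 and WT vehicle 2 the log2 estimates of other sign were Ftl1 -0.059 for folic acid averaged over the genotypes, and Gpx4 -0.30 for G3 over WT after vehicle. Without these and WT folic acid 1 the log2 estimates of other sign were Ftl1 -0.047 for folic acid averaged over the genotypes, and Gpx4 -0.30 for G3 over WT after vehicle. After quantile normalisation the log2 estimates of other sign were Ftl1 0.018 for folic acid in WT, and Fth1 0.056 for folic acid averaged over the genotypes. In edgeR the log2 estimates of other sign were Ftl1 -0.022 for folic acid averaged over the genotypes. In DESeq2 the log2 estimates of other sign were Ftl1 -0.033 for folic acid averaged over the genotypes. Leaving out 1 library at a time, the ranges of estimates whose sign changed were, for folic acid in WT, Ftl1 -0.26 to 0.13 and Gpx4 -0.58 to 0.054. For folic acid in G3 they were Slc11a2 -0.044 to 0.15, Slc40a1 -0.071 to 0.13, Acsl4 -0.22 to 0.0061, Lpcat3 -0.00029 to 0.12 and Ftl1 -0.16 to 0.29. For folic acid averaged over the genotypes they were Aifm2 -0.18 to 0.0066, Ftl1 -0.10 to 0.12 and Acsl4 -0.047 to 0.12. For G3 over WT after vehicle the range was Gpx4 -0.30 to 0.46. For G3 over WT after folic acid the range was Tfrc -0.22 to 0.16. For the difference of the folic acid effects it was Ftl1 -0.12 to 0.36.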
